A study of Rattus norvegicus with 8 samples.

Results

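The Wnt family was followed in spinal motoneurons of the rat between postnatal days 1 and 21. It was taken as every probe set whose single annotated symbol begins with Wnt, Fzd, Sfrp, Dkk or Dvl and a number, together with Lrp5, Lrp6, Ryk, Ror1, Ror2, Axin1, Axin2, Apc, Ctnnb1, Lef1, Tcf7, Tcf7l1, Tcf7l2, Wif1, Frzb, Gsk3a and Gsk3b. This gave 73 of the 31042 probe sets, for 44 genes, and no probe set matched Ror1 or Ror2. Motoneurons of the lumbar cord of Wistar albino rats had been collected by laser capture at postnatal day 1 (P1), during myelination, and at postnatal day 21 (P21), after it. Cells were picked on a cresyl violet stain, no treatment is named for either age, and each age had 4 arrays with 1 pool of 1500 to 2000 captured cells per array. About 50 ng of RNA came from each pool of 4 rats, and 4 litters were divided between the ages.

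Wnt proteins are secreted lipid-modified signals that bind Frizzled receptors. With the co-receptors Lrp5 and Lrp6 they act through Dishevelled to free β-catenin from a complex of Axin, Apc and Gsk3, and β-catenin then works in the nucleus with the Tcf and Lef factors. A second branch through planar polarity proteins and calcium acts on the cytoskeleton, and in developing motoneurons and other neurons Wnt signals are known for roles in patterning of the cord, axon guidance and synapse formation.

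The RefSeq promoter table (build GRCr8, 250 bases before to 50 after a gene's start) held 33 of the 44 genes. A 7-base Tcf/Lef motif, searched on both strands in its forms CTTTGAA or CTTTGAT as well as CTTTGTA or CTTTGTT, was present in 4 of these 33 promoters (Axin2, Gsk3a, Sfrp5 and Tcf7) and in 17.1% of the 33469 promoters in the table. The promoter of Axin2, a negative regulator that is itself a classic target of β-catenin, held 2 copies, CTTTGAA at 232 and CTTTGAT at 132 bases before the start, and is shown with them in capitals (chr10:94398535-94398834, + strand). The promoters of Sfrp2, Wnt7a and Tcf7l2, which had the largest changes among the tested genes with a promoter in the table, held none of these letters in the window. They are shown with CG pairs in capitals, of which they held 21, 42 and 36 against a median of 7 over the table (Sfrp2 at chr2:171387286-171387585, + strand; Wnt7a at chr4:125466100-125466399, - strand; Tcf7l2 at chr1:264791085-264791384, + strand). Such counts were not particular to genes that changed. The promoters of Frzb and Gsk3b, which also passed, held 4 and 7, and those of tested members that did not pass held 4 (Apc) to 53 (Wnt4).
Axin2: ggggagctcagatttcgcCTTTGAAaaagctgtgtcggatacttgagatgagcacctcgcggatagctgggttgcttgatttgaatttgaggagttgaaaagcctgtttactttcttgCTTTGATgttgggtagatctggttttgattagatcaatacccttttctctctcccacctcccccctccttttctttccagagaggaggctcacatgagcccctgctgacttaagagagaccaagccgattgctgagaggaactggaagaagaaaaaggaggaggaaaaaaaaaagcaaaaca
Sfrp2: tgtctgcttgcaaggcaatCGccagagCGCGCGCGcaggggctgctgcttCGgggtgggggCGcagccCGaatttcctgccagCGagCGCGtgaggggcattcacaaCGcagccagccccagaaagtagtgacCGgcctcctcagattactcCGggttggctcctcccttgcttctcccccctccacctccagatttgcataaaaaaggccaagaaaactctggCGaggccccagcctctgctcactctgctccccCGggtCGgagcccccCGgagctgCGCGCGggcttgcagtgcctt
Wnt7a: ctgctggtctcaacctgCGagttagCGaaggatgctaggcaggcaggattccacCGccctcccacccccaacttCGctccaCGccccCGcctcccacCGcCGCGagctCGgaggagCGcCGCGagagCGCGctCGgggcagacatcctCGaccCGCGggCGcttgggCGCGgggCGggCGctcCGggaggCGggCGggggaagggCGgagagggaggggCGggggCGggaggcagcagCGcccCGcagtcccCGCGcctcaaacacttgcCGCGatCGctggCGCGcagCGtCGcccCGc
Tcf7l2: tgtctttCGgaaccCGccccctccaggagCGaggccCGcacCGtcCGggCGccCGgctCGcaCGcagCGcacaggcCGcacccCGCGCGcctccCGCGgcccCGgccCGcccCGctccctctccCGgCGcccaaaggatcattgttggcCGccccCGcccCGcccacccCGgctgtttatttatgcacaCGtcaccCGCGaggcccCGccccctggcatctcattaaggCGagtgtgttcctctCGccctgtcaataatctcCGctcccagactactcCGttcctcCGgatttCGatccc

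Intensities are the linear values the authors deposited. Changes are P21 minus P1 on the log2(intensity + 16) scale, from limma, with ± giving the standard error; beside intensities ± gives the SD (n = 4 arrays per age). Testing was limited to probe sets brighter than the 40th percentile of an array, a level of 221 to 287, on 4 or more of the 8 arrays. A call is an adjusted p under 0.05 over all 19155 tested probe sets. The arrays carried the motoneuron markers sought, with 7 of 9 found and all of those tested, and their summed intensity was 27197 to 30167 at P1 and 28824 to 34004 at P21. Of the 7, Chat (change 1.32) and Isl2 (0.33) rose, Isl1 fell (-1.67) and 4 did not pass. RNA of other cells was also present, and in such pools fewer cells of a type and less RNA per cell cannot be told apart. Array medians lay between 323 and 416, and centring each array on its median subtracted 0.14 from every change and took the share of calls that were higher at P21 from 54.4% to 38.6% over all probe sets.

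Probe sets of the secreted antagonists Sfrp2, Frzb and Sfrp1 fell between P1 and P21, as did the tested one of Dkk3, which is grouped with them here. A probe set each of the ligand Wnt7a and the kinase gene Gsk3b also fell, and Tcf7l2 and Wnt5b rose. No Frizzled receptor, co-receptor, Dishevelled or β-catenin probe set passed the test. The calls of Frzb and Gsk3b were lost on leaving out most single arrays, and only 1 of 2 tested Sfrp1 probe sets passed. Of the 73 probe sets, 35 were bright enough to be tested, for 29 genes, and 8 of these 35 passed (22.9%), 2 higher and 6 lower at P21. Over all tested probe sets 38.3% passed, 20.8% higher and 17.4% lower. The share in the family was thus below that of the array, which is a description with no test. The median change of the 35 was -0.05, against 0.07 over all tested probe sets. The 8 that passed were also those in which the 4 arrays of one age did not overlap the 4 of the other, a separation seen in 38% of all tested probe sets (20.4% with P21 higher and 17.7% with P21 lower). Counted once per gene, 7 of 29 passed (2 higher, 5 lower), against 40.9% of all genes (22.8% higher and 18.1% lower). Sfrp2 was tested through its P1 arrays alone and so had to differ. After quantile normalization 8 passed, 1 higher and 7 lower, with 40.7% of all tested probe sets passing.

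**Figure D1:**
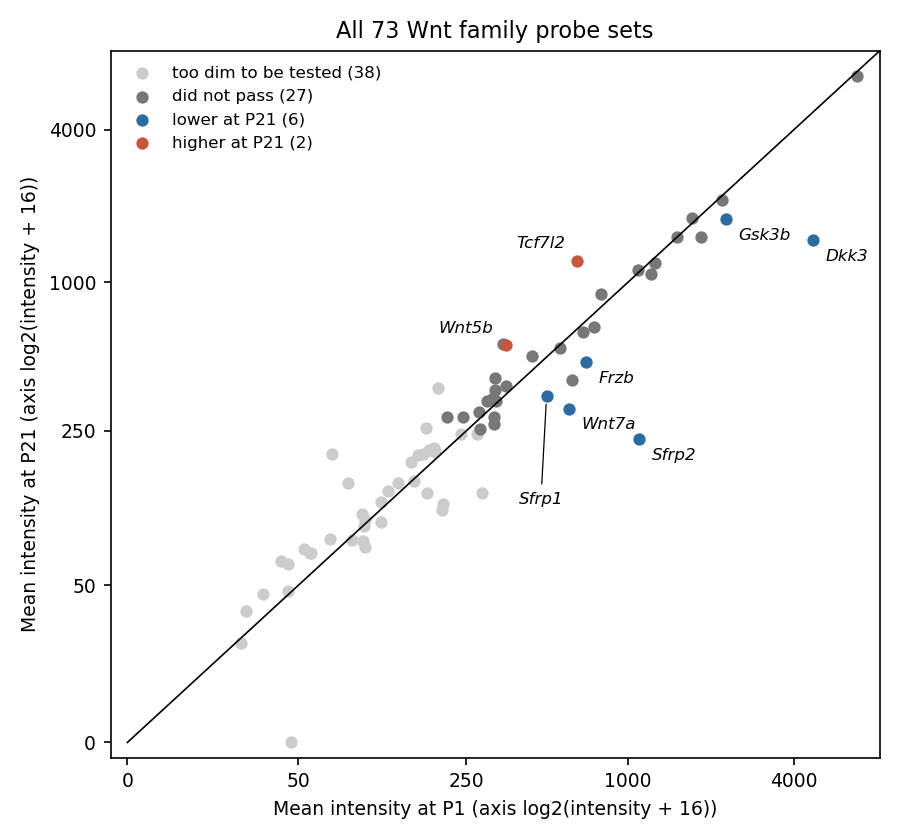
Mean intensity at P1 (horizontal) and P21 (vertical) of all 73 probe sets on log2(intensity + 16) axes, with means below 0 drawn at 0 and the line of equality. The 6 probe sets that fell lie below the line, led by Sfrp2 and Dkk3, and Tcf7l2 and Wnt5b lie above it.

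The 2 largest changes in the family were in genes grouped here as secreted antagonists. Sfrp2, a secreted Frizzled-related protein that binds Wnts outside the cell, read 1129.96, 789, 1126 and 1341 on P1 replicates 1 to 4 and 222, 254, 218 and 232 on P21 replicates 1 to 4. Every P21 array lay under the 40th percentile, far below every P1 array. The fitted change was -2.15 ± 0.15, and the fall was at least 3.76-fold. Since it passed the filter through its P1 arrays alone, the p given is that of the fit without a filter (adjusted p = 3.94e-05). Its second probe set, too dim to be tested, was also lower on each P21 array, at 201 ± 12.4 at P1 and 114 ± 36.6 at P21.

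Dkk3, a divergent member of the Dickkopf family of secreted proteins, whose relatives inhibit Lrp6, read 4394, 4101, 4897 and 5354 on P1 replicates 1 to 4 and 1175, 1595, 1669.8 and 1457 on P21 replicates 1 to 4. Its lowest P1 array was thus more than double its highest P21 array in intensity. It fell by 1.66 ± 0.13, 3.17-fold lower (adjusted p = 1.45e-05). Of its 3 other probe sets, all too dim to be tested, one read 286 ± 58.7 at P1 and 136 ± 11.7 at P21 and one 46.0 ± 208 at P1 and -636 ± 41.3 at P21, and both were lower on every P21 array than on every P1 array.

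Frzb, a secreted Frizzled-related protein also called Sfrp3, went from 699.5 ± 169.6 to 479 ± 59.6 (change -0.51 ± 0.17, adjusted p = 0.0387). Its arrays did not overlap, but only narrowly, with 527 as the lowest at P1 and 522 as the highest at P21. The call was lost without the filter (adjusted p = 0.0728) and on leaving out any array but P1 replicate 1 (0.0537 to 0.0963). Another Frzb probe set, too dim to be tested, overlapped between the ages, at 170 ± 31.4 at P1 and 199 ± 72.3 at P21.

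Sfrp1, of the same family as Sfrp2, was divided between its probe sets. One read 485, 534, 508 and 478 on P1 replicates 1 to 4 and 315, 340.4, 367 and 371 on P21 replicates 1 to 4, lower on every P21 array (change -0.51 ± 0.09, adjusted p = 0.00174). The other tested one, which has the higher mean and stands for the gene in the count per gene, overlapped between the ages, at 748 ± 79.0 at P1 and 661 ± 138 at P21 (change -0.19 ± 0.15, adjusted p = 0.355). Wif1, a secreted inhibitor that binds Wnts directly, did not pass (change 0.50 ± 0.37, adjusted p = 0.32). It read 308, 468, 313 and 285 on the P1 arrays and 311, 364, 401 and 1182 on the P21 arrays, so a single array, P21 replicate 4, was high. The summed intensity of 7 pericyte and fibroblast markers was also highest on that array (27777), and their part in the Wif1 reading was not tested. The probe sets of Dkk2, Sfrp4 and Sfrp5 were too dim to be tested.

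Of 5 markers of radial glia and ependyma, 2 fell and 3 did not pass. Fabp7, a lipid carrier of radial glia and astrocytes, fell from 7585 ± 259 to 3286 ± 300.1, and Foxj1, a factor of ciliated cells, fell by 0.33. The summed intensity of the 5 was 11836 to 12771 at P1 and 7274 to 7960.1 at P21, and most of that difference was Fabp7; Nes was 278 at P1 and 374 at P21, and none of the 5 lay under the 40th percentile throughout either age. Among 4 markers of dividing cells, Cdk1 fell and 3 did not pass (sums of 2402 to 2774 and 1426 to 2903). Of 6 astrocyte markers, 4 rose and 2 did not pass (sums of 9736 to 10816 at P1 and 14011.5 to 16714 at P21). The part of these markers in the fall of Sfrp2, Dkk3, Frzb and Sfrp1 was not tested.

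**Figure D2:**
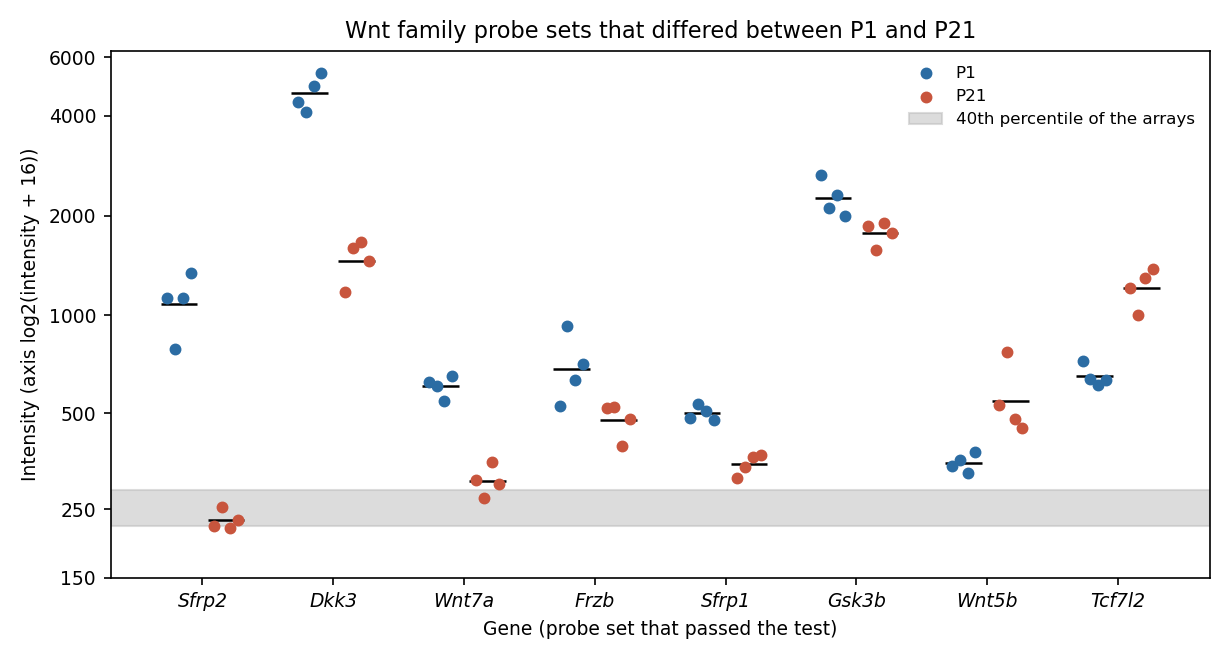
Intensity of the 8 probe sets that passed, by array, on a log2(intensity + 16) axis, with a bar at the mean of the log2 values of each age and a grey band over the range of the 40th percentiles of the 8 arrays. The ages do not overlap in any of the 8, and the P21 arrays of Sfrp2 lie in or just under the grey band.

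Among the ligands, 11 of 17 probe sets were tested, for 9 of 13 genes, and 2 passed, in opposite directions. Wnt7a, a ligand known in mice for its part in axon remodelling and synapse formation, read 622, 608, 546 and 649.7 on P1 replicates 1 to 4 and 311, 272, 353 and 300.02 on P21 replicates 1 to 4. All P21 arrays lay below all P1 arrays (change -0.94 ± 0.10, 1.92-fold lower, adjusted p = 9.74e-05). A second Wnt7a probe set, at 319.6 ± 41.4 at P1 and 267 ± 50.5 at P21, overlapped between the ages and did not pass (change -0.26 ± 0.14, adjusted p = 0.189).

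Wnt5b, a ligand mostly linked to signalling without β-catenin, read 342, 359, 326 and 380.3 on P1 replicates 1 to 4 and 532, 773, 479 and 451 on P21 replicates 1 to 4. All 4 P21 arrays were higher than all P1 arrays, and P21 replicate 2 was the highest (change 0.61 ± 0.16, 1.53-fold, adjusted p = 0.0129). The call was lost with quantile normalization (adjusted p = 0.0525).

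The other tested ligands, Wnt1, Wnt2, Wnt2b, Wnt4, Wnt6, Wnt9a and Wnt10a, did not pass, with changes from -0.26 to 0.42 if the second probe set of Wnt7a is counted with them. Wnt10a, a ligand of the β-catenin branch, read 2088, 2056, 1198 and 1519 on P1 replicates 1 to 4 and 2072, 2019.9, 1537 and 1567 on P21 replicates 1 to 4. The arrays numbered 1 and 2 were the higher ones at both ages, and the ages overlapped (change 0.09 ± 0.19, 95% interval -0.34 to 0.52); the sign turned with median centring (-0.047) and without P1 replicate 3 (-0.068). Wnt4 read 442 ± 35.3 at P1 but 447, 1084, 252 and 234 on the P21 arrays, where replicate 2 stood above the rest (change -0.09 ± 0.40, adjusted p = 0.881). One of the 2 Wnt2 probe sets passed only with the replicate number as a block (change 0.42, adjusted p = 0.0433) and without P21 replicate 3 (adjusted p = 0.0394). Wnt5a, Wnt8b, Wnt11 and Wnt16 had no probe set bright enough to be tested.

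No receptor passed the test. Of the Frizzled genes, 6 of 7 were tested, and 0 passed by limma's adjusted p. Fzd2, the member nearest the threshold, read 654, 440.1, 652 and 738 on the P1 arrays and 394, 487, 486 and 253 on the P21 arrays, so that P1 replicate 2 lay among the P21 values. Its change was -0.62 ± 0.22 (adjusted p = 0.0539), and it passed, lower at P21, with median centring (adjusted p = 0.0275), quantile normalization (0.0454), a pseudocount of 64 (0.0481) or an intensity trend in the variance (0.0398), and without P1 replicate 2 (0.0212) or P21 replicate 3 (0.0471). The changes of the other 5 lay between -0.16 (Fzd4) and 0.18 (Fzd5). For Fzd1 the 95% interval of the change was -0.19 to 0.29, and for Fzd5 it was -0.08 to 0.44. Fzd3, a receptor that guides axons in mice, read 283 ± 16.2 at P1 and 254 ± 45.9 at P21, near the lower limit of what was tested, and Fzd6 was too dim to be tested. The co-receptor Lrp6 read 1209 ± 144 at P1 and 1081 ± 83.8 at P21 with overlapping arrays (change -0.16 ± 0.11, 95% interval -0.40 to 0.09). The probe sets of Lrp5 and of Ryk, a Wnt receptor with a kinase-like domain, were too dim.

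Inside the cell, 10 of 16 probe sets were tested and 1 passed. Ctnnb1, the gene of β-catenin, read 6698, 6553, 6808 and 6956 on P1 replicates 1 to 4 and 6558, 6471, 6467 and 6640.5 on P21 replicates 1 to 4. These values overlapped and lay within a narrow range (change -0.05 ± 0.08, 95% interval -0.22 to 0.13, 0.025 with quantile normalization). A second tested probe set of Ctnnb1 gave 0.01 ± 0.14, and 2 further ones were too dim.

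Gsk3b, one of the kinases that mark β-catenin for destruction, read 2643, 2109, 2309 and 2001 on P1 replicates 1 to 4 and 1864, 1571, 1894 and 1774 on P21 replicates 1 to 4. It was lower on every P21 array, by a small amount (change -0.34 ± 0.11, 1.27-fold lower, adjusted p = 0.0372). The call was lost without the filter (adjusted p = 0.0746) and on leaving out P1 replicate 1 or 3 or P21 replicate 1, 2 or 4 (0.0536 to 0.0955). Its paralogue Gsk3a read 2205 ± 98.4 at P1 and 2117 ± 217 at P21 and did not pass (change -0.06 ± 0.10, 95% interval -0.28 to 0.16).

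Axin1, the scaffold of the destruction complex, read 1843 ± 291 at P1 and 1507 ± 135 at P21 and did not pass (change -0.28 ± 0.13, adjusted p = 0.118), but it did with the replicate block (adjusted p = 0.0474) and without P1 replicate 2 (0.0345). Apc, a partner of Axin in that complex, gave -0.07 ± 0.08 on one tested probe set and 0.40 ± 0.21 on the other, which passed without P1 replicate 2 (0.58, adjusted p = 0.0243). The Dishevelled genes Dvl1 and Dvl2, which carry the signal inward from Frizzled, had changes between -0.05 and 0.15, and Dvl3 was too dim. Axin2, whose promoter with 2 Tcf/Lef motifs is shown above, read 129, 120.1, 71.1 and 139 on P1 replicates 1 to 4 and 101, 118, 90.1 and 93.5 on P21 replicates 1 to 4. All 8 values lay under the 40th percentile of their arrays, so it was not tested.

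**Figure D3:**
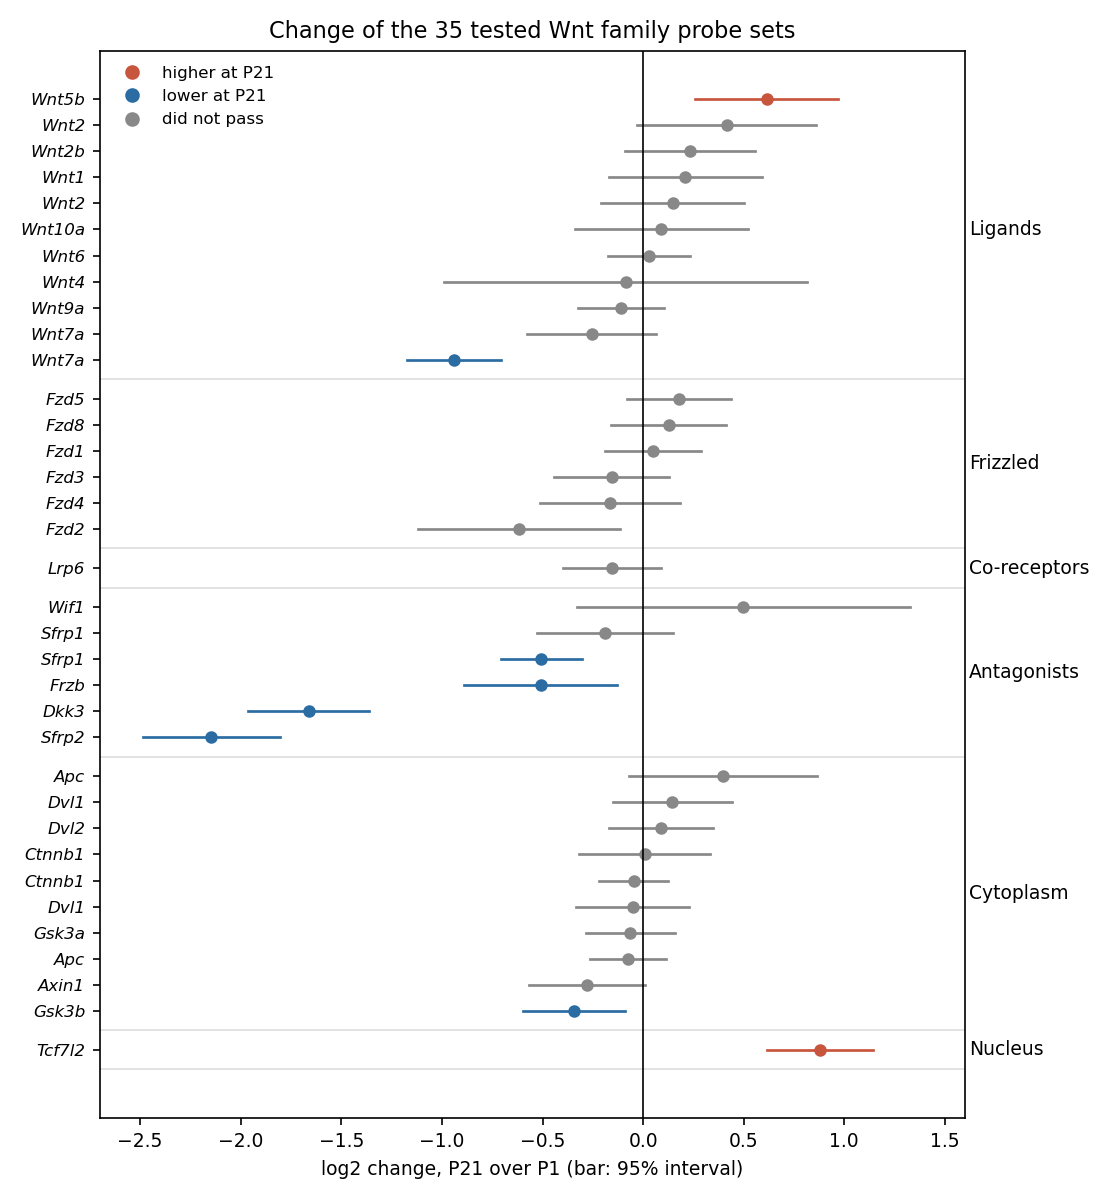
Change from P1 to P21 (log2, with its 95% interval) of the 35 tested probe sets, grouped by role, with 2 probe sets of a gene on 2 lines. Of the antagonist group, which includes Dkk3, 4 of 6 probe sets lie below 0 with intervals that do not reach it. The intervals of the receptors cross 0 except for Fzd2, which did not pass after adjustment.

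Of the nuclear factors only 1 of 10 probe sets was tested. Tcf7l2, a partner of β-catenin on DNA that is known in mice for its part in oligodendrocyte maturation, read 724, 639, 609 and 635 on P1 replicates 1 to 4 and 1205, 998, 1294 and 1377 on P21 replicates 1 to 4. Every P21 array was above every P1 array (change 0.88 ± 0.12, 1.84-fold, adjusted p = 3.11e-04). Its 4 other probe sets were too dim. All 7 oligodendrocyte markers found also rose, with summed intensities of 7168 to 9177 at P1 and 29304 to 31577 at P21; 3 of them lay under the 40th percentile on all P1 arrays and none on all P21 arrays. Of 5 oligodendrocyte precursor markers 2 rose, 1 did not pass and 2 were too dim to be tested. The 3 Schwann cell markers found rose too, and of 6 astrocyte markers 4 rose and 2 did not pass. The part of these cell types in the rise of Tcf7l2 was not tested.

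The remaining 38 probe sets were dim, and 28 of them lay under the 40th percentile on all 8 arrays. Fitted without the filter, where 23.3% of all probe sets passed, 3 of the 38 were higher and 3 lower at P21. Besides the second probe sets of Sfrp2 and Dkk3, one of Tcf7l1, a Tcf factor that mostly represses, was lower (adjusted p = 0.022), with 204 ± 44.2 at P1 and 121 ± 14.5 at P21. The 3 that were higher were Sfrp5 (adjusted p = 0.00879), Lef1 (adjusted p = 0.0269) and Tcf7 (adjusted p = 0.0294). No fold is given for Tcf7, which lay under the 40th percentile on all 8 arrays, for Tcf7l1, which exceeded it on 1 P1 array, or for Sfrp5, which exceeded it on 1 P21 array. Tcf7, a β-catenin partner best known from T cells, read 84.0 ± 31.8 at P1 and 149 ± 23.9 at P21. For Sfrp5, an antagonist of the Sfrp family, the P21 arrays read 338, 187, 148 and 125 and the P1 arrays 68.6 to 73.6. One of 2 probe sets of Lef1, a β-catenin partner that is active in brain endothelium in mice, read 196, 229, 191 and 164 on the P1 arrays and 432, 508, 227 and 341 on the P21 arrays, at least 1.41-fold higher, with P1 replicate 2 just above P21 replicate 3. Of 6 endothelial markers found, 4 rose and 2 did not pass, with sums of 2957 to 4637 at P1 and 3833 to 7974 at P21, and 1 of the 6 lay under the 40th percentile on all P1 arrays; their part in the Lef1 reading was not tested.

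The rest of the pathway was read from 5 lists with 120 genes, of which 97 were tested with 1 probe set each. Of these, 17 rose and 23 fell (41.2%, against 40.9% of all genes), or 11 and 27 with each array centred on its median. Over all genes 22.8% were higher and 18.1% lower in the main fit. By list, the share that passed was 52.9% (surface), 31.8% (cytoplasmic), 16.7% (nuclear), 52% (planar polarity and calcium) and 53.3% (target genes). The median change of the 97 was 0.01, against 0.05 over all genes.

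Regulators at the cell surface moved in both directions, with 6 of 17 higher and 3 lower (median 0.08). Sost, the gene of sclerostin, a secreted inhibitor that binds Lrp5 and Lrp6 and is best known from bone, read 96.0, 113, 92.0 and 90.2 on P1 replicates 1 to 4 and 947, 1277, 1331 and 537 on P21 replicates 1 to 4. It lay under the 40th percentile on every P1 array and well above it on every P21 array (fitted change 3.11 ± 0.25, at least 3.67-fold higher). Rspo3, a secreted enhancer of Wnt signalling, read 179, 175, 132 and 91.2 on the P1 arrays and 325, 438, 275 and 502 on the P21 arrays, at least 1.46-fold higher. Sost, Rspo3 and Lgr4, among the 6 that rose, passed the filter through their P21 arrays alone and so had to differ; in the fit without a filter Sost had an adjusted p = 7.63e-05 and Rspo3 an adjusted p = 0.00462. Apcdd1, a membrane protein that inhibits Wnt signalling, fell from 1135 ± 211 to 649 ± 175 (adjusted p = 0.0117), although P1 replicate 2 (829.6) lay below P21 replicate 2 (862). Of 7 pericyte and fibroblast markers 5 rose and 2 did not pass, with sums of 7449 to 10416 at P1 and 12947 to 27777 at P21 and none under the 40th percentile throughout either age; their part in the changes of Sost and Rspo3 was not tested. Among the P21 arrays that sum was lowest on replicate 3 and highest on replicate 4, as was Rspo3, whereas Sost was highest on replicate 3 and lowest on replicate 4. These orders over 4 arrays were read with the values known and were not tested, and nothing is concluded from them.

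Cytoplasmic regulators had 3 of 22 higher and 4 lower (median 0.02). Csnk1e, a kinase that acts on Dishevelled, fell (change -1.10 ± 0.20, adjusted p = 0.00182), while its other tested probe set changed by -0.22 and did not pass. The genes of the Dishevelled-binding Dact proteins parted, Dact3 falling (change -0.83 ± 0.18) and Dact2 rising from 879.5 ± 106 to 1980.5 ± 436 (change 1.13 ± 0.17, adjusted p = 5.70e-04). Of 18 nuclear cofactors 0 rose and 3 fell by limma's test (16.7%, median -0.05), against 22.8% higher and 18.1% lower over all genes. The 3 included Bcl9l, a coactivator of β-catenin (change -0.81 ± 0.13, adjusted p = 8.05e-04), and Tle2, a Groucho corepressor, at least 1.19-fold lower. Tle2 passed the filter through its P1 arrays alone and so had to differ (adjusted p = 0.0255 without a filter).

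The planar polarity and calcium branch had 5 of 25 higher and 8 lower (median 0.03). Vangl2, a core membrane protein of planar polarity, read 1771, 1089, 1663 and 1677 on P1 replicates 1 to 4 and 480.4, 459, 544 and 565 on P21 replicates 1 to 4. Its P21 arrays lay close together and all below the P1 arrays (change -1.55 ± 0.16, adjusted p = 5.56e-05). The other tested probe set of Vangl2, under the 40th percentile on all P21 arrays, was at least 2.06-fold lower. That probe set passed the filter through its P1 arrays alone and so had to differ (limma adjusted p = 1.50e-04 without a filter). Celsr3, an atypical cadherin of the same system that guides axons in mice, fell from 1904 ± 185 to 786 ± 171 (adjusted p = 2.28e-04). Rock2, a kinase downstream of RhoA that acts on actin and myosin, rose by 1.02 ± 0.10 (adjusted p = 4.07e-05), and its other tested probe sets rose by 1.32 and 0.82.

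Among genes widely used as readouts of β-catenin, 3 of 15 rose and 5 fell (median 0.16). Ccnd2, the cell cycle gene of cyclin D2, went from 3113 ± 270.4 to 1532 ± 238 (adjusted p = 1.84e-04), and the growth regulator Myc fell by 0.77 ± 0.14. Bmp4, a secreted BMP ligand, read 223 ± 51.0 at P1 and 747 ± 67.6 at P21 (change 1.70 ± 0.14, adjusted p = 1.92e-05), with 1 of its 4 P1 arrays above the 40th percentile. These genes answer to many other signals, and Axin2, the more specific readout, was too dim.

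**Figure D4:**
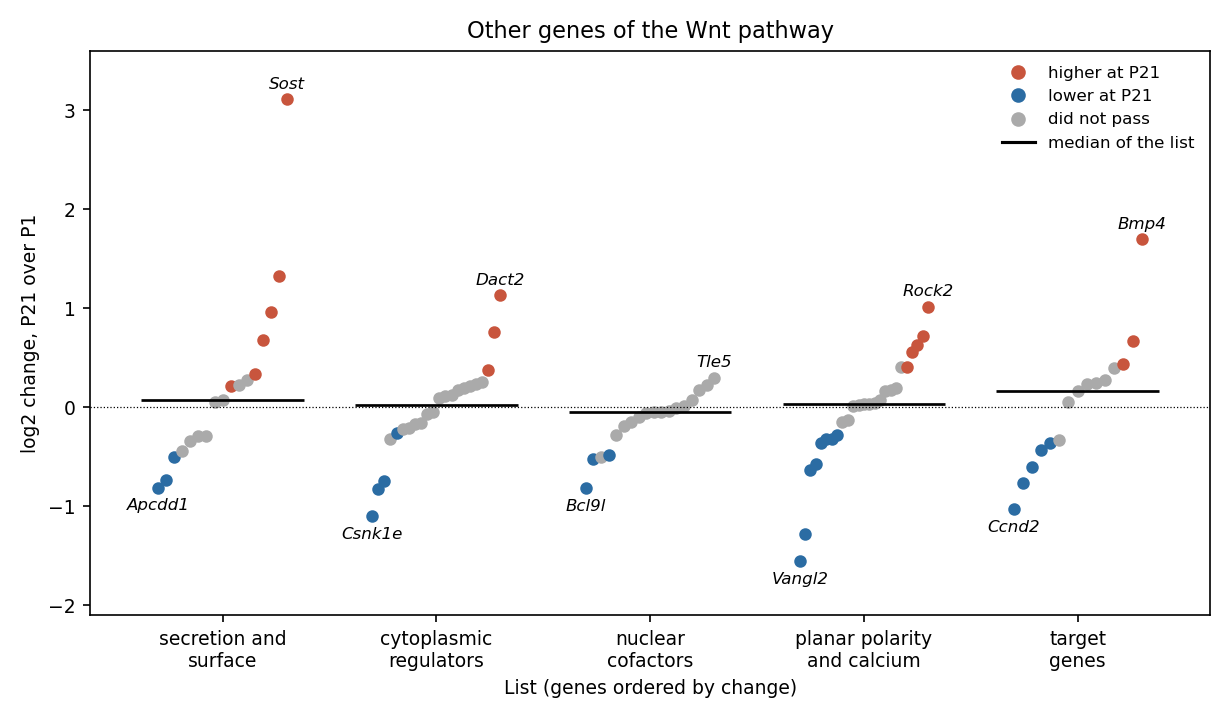
Change from P1 to P21 (log2) of the 97 other pathway genes tested, 1 point per gene, in 5 lists, with a line at each median. Medians lie between -0.05 and 0.16, while Sost (3.11) and Bmp4 (1.70) stand highest and Vangl2 (-1.55) and Celsr3 (-1.28) lowest.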

How the data were processed

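The deposited table holds a linear intensity per probe set and array (Affymetrix RAE230 2.0); the authors' summarisation and normalization are not given in the sources used here. Per the labels' protocols, cells were captured from 12 µm sections stained with cresyl violet, and RNA was amplified in 2 rounds primed at the poly(A) tail, which favours 3′ ends. Symbols come from the platform annotation; all 73 members had a current gene identifier and 0 symbols changed.

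Intensities below 0 were set to 0. The change in log2(intensity + 16) of the deposited values was fitted by lmFit and eBayes of limma 3.58.1 under R 4.3.3, without covariates, with Benjamini-Hochberg adjustment over 19155 probe sets or, for counts per gene and for the pathway lists, over 10961 genes, each shown by its tested probe set of highest mean. The fit was tested on simulated data drawn independently for each array, which does not cover arrays that deviate together. The scale understates changes of dim genes. Where all 4 arrays of an age lay under the 40th percentile, the fold is a bound against that level. Array number limits the precision.

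Members and lists were chosen with earlier results of these data known. Every member that passed was named, with the 6 brightest genes that did not and, per pathway list, the 2 called genes changing most in the prevailing direction and 1 in the other; any further gene was picked with its values already known. The design text divides each litter between the ages, and same-numbered arrays deviated together (correlations 0.514, 0.321, 0.558 and 0.15 for numbers 1 to 4), although P1 replicate 4 correlated more with P21 replicate 3 (0.366). Every same-number correlation was over 0.1, but so was that of P1 replicate 1 with P21 replicate 2 (0.262). The numbers may mark pairs, but the labels do not say that a number marks a litter. The fit above has no block, and its standard errors leave any such pairing out. The block was run as an alternative.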

Additional observations from a re-analysis of the deposited data

Results flagged for a closer look

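One reading among the tested members lay far from its group. The higher of the 2 tested Sfrp1 probe sets read 866 on P1 replicate 1 and between 699 and 714 on the 3 remaining P1 arrays, so that the gap to the nearest array was 0.902 of the whole range on the log2 scale, above the 95% limit of Dixon's test for 4 arrays. It was the only one of 70 groups of 4 arrays to do so, fewer than the 1 in 20 that chance gives. That probe set did not pass the test between the ages.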

How the results depend on the processing

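Each result was recomputed with median centring, quantile normalization, pseudocounts of 4 and 64, no filter, a filter at the 60th percentile, the replicate block, a variance trend, the mean of a gene's probe sets and each array left out from the same tested probe sets. The family count of 8 probe sets became 5 at the 60th percentile, where 16 were tested and 45.2% of all tested probe sets passed. Without the filter it became 12, where all 73 were tested and 23.3% of all probe sets passed (Frzb and Gsk3b lost, 6 dim probe sets gained). It was 8 to 10 under the other alternatives, where 35.6% to 46% of all tested probe sets passed. With an array left out it was 6 to 10, where 31.2% to 38.7% of all passed. The replicate block gave 10, with 46% of all tested probe sets passing against 38.3% in the main fit. Apart from the Axin1 and Wnt2 values given above, the block changed no call of a family probe set. The count of 7 family genes lay between 5 and 10 (5 to 8 with an array left out), and that of 40 other pathway genes between 34 and 47 (31 to 41). The called probe sets of Sfrp2, Dkk3, Sfrp1, Wnt7a and Tcf7l2 kept direction and call under every alternative that gave a value. Over the named family probe sets and the called pathway genes, 799 recomputed values kept their direction and side of the threshold, 89 lost the call and 2 gained it. Changes near 0 turned in sign for Ctnnb1 with quantile normalization (0.025) and for Wnt10a with centring (-0.047) and without P1 replicate 3 (-0.068, in a range of -0.068 to 0.196 with an array left out). Dim probe sets limit what can be said of 38 members, Axin2 among them.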

Other observations

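Further pathway genes, chosen after their values were seen, also moved in both directions. At the surface, Ndp, the gene of the Frizzled-4 ligand norrin, rose from 662 ± 38.7 to 1069 ± 99.5 (limma adjusted p = 3.40e-04) and Lgr4, a receptor for R-spondins, was at least 1.34-fold higher, though it passed the filter through its P21 arrays alone and so had to differ (adjusted p = 0.0046 without a filter), while the glypican gene Gpc4 fell (change -0.73 ± 0.12). Dact1, like Dact3, fell (change -0.74 ± 0.10), and its other tested probe set, under the 40th percentile on all P21 arrays, was at least 1.48-fold lower. That second probe set passed the filter through its P1 arrays alone and so had to differ (limma adjusted p = 0.00186 without a filter). Senp2, a SUMO protease, rose from 1393 ± 114 to 2374 ± 24.5, and its other tested probe set rose by 0.68. In the planar polarity branch the co-receptor gene Ptk7 (change -0.57 ± 0.10) and Prickle1 (change -0.36 ± 0.09) fell with Vangl2 and Celsr3, and the phospholipase genes parted, Plcb4 rising (change 0.72 ± 0.08) and Plcb1 falling (change -0.32 ± 0.08). Leaving Lgr4 aside, these calls held under all alternatives that gave a value.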
